A study of Homo sapiens with 16 samples.

Results

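The 9 genes described here encode proteins of the tight junction: the claudins CLDN1, CLDN2, CLDN3, CLDN4, CLDN7 and CLDN12, occludin (OCLN) and the zonula occludens scaffolds TJP1 (ZO-1) and TJP3 (ZO-3). They were picked by symbol, and all 9 were found among the 18227 genes of the tables. Their mRNA was measured by RNA sequencing in 2 established cell lines from human non-small cell lung cancers, A549 and H2023. Wild-type cells of each were set against a ZC3H12A knockout, ZC3H12A being the gene of Regnase-1, an RNase that degrades a set of mRNAs. Normal culture lasted 3 days, and oncosphere culture, which enriches stem-like cells, lasted 7 days, so culture type and duration change together. The 8 groups (A549 or H2023, wild type or knockout, normal or oncosphere culture) hold 2 libraries each. The titles name 1 clone per line for the knockout, so an effect of the edit cannot be told apart from other features of that clone. Nothing in the labels says that replicates are separate cultures, so p-values measure the spread between these libraries, which may be technical.

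Tight junctions seal the space between neighbouring epithelial cells near their apical side. Claudins span the membrane and set which ions and water pass: some, such as CLDN1, CLDN3, CLDN4 and CLDN7, mainly tighten the barrier, whereas CLDN2 forms a pore for small cations. Occludin spans the membrane beside them, and the ZO proteins bind both from the inside and tie them to actin. The zinc finger repressors SNAI1, SNAI2, ZEB1 and ZEB2 bind E-box sequences in the promoters of several epithelial genes, claudins and occludin among them.

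Promoter windows of 300 bases, from 250 bases before to 50 after a transcription start, were taken from RefSeq (GRCh38.p14) for all 9 genes, 16 windows in all. They were searched on both strands for CACCTG, the E-box core of these repressors, and for TGACTCA, the AP-1 element. CACCTG was present in 20.6% of 35116 windows of all genes and TGACTCA in 4.95%. The windows below were chosen after the matches were seen, to show windows with several CACCTG and with none among genes called in the comparisons that follow; capitals mark CACCTG or TGACTCA on either strand. Of 2 CLDN7 windows, 1 (chr17:7262429-7262728, - strand) holds 5 CACCTG matches, a number reached by 0.094% of all windows, and the other holds none. Of 2 OCLN windows, 1 (chr5:69492540-69492839, + strand) holds 2, reached by 3.49%. The CLDN1 window (chr3:190322397-190322696, - strand) holds neither CACCTG nor TGACTCA, and the CLDN4 window (chr7:73830746-73831045, + strand) holds 1 TGACTCA and no CACCTG.
CLDN7: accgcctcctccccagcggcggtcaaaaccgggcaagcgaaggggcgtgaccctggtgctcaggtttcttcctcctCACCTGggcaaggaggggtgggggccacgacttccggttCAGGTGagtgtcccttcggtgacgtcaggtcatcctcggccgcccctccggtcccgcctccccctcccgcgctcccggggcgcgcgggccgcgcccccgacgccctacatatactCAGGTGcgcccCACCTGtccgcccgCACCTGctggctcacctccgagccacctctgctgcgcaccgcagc
OCLN: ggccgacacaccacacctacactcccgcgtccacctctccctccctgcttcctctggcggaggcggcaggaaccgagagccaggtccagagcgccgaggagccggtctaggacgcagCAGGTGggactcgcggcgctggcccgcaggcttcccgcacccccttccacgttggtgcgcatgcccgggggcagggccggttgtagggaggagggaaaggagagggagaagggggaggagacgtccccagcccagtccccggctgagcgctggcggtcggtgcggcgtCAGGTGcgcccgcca
CLDN1: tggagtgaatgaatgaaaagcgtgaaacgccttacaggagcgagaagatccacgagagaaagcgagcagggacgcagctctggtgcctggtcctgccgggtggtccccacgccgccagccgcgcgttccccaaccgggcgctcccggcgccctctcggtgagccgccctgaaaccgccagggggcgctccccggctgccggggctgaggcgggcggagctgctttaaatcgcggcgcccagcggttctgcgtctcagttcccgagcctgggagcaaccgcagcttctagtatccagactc
CLDN4: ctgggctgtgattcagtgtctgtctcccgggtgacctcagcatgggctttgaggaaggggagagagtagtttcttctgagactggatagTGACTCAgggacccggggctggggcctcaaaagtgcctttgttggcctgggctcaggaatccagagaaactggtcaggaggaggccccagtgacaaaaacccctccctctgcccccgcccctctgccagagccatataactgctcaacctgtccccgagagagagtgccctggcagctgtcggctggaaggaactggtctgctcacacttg
Among the remaining windows, CACCTG occurred 1 time in 1 window each of CLDN3, TJP1 and TJP3 and in the other OCLN window, and in none of CLDN2 or CLDN12. These are matches of letters in reference sequence; binding was not measured.

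In GRCh38 (GENCODE 29), CLDN1 lies on chromosome 3 (190305701 to 190322475, - strand) and CLDN2 on chromosome X (106900164 to 106930861, + strand). CLDN3 (73768997 to 73770270, - strand) and CLDN4 (73799542 to 73832693, + strand) are neighbours on chromosome 7, 29271 bases apart. CLDN7 lies on chromosome 17 (7259903 to 7263983, - strand) and CLDN12 on chromosome 7 (90383721 to 90513402, + strand), where it overlaps GTPBP10 and CDK14 on the same strand, so its reads may be shared. OCLN lies on chromosome 5 (69492292 to 69558104, + strand) and has a pseudogene copy, OCLNP1, which makes its level uncertain. TJP1 lies on chromosome 15 (29699367 to 29968865, - strand) and TJP3 on chromosome 19 (3708109 to 3750813, + strand).

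Levels are TPM (an abundance scaled by gene length and library total, so genes can be compared within a library); TPM keeps no depth, and the depth of each library is unknown. Each library had between 13824 and 14508 genes at 1 TPM or more, and the correlation of replicates across genes was 0.983 to 0.992. The mitochondrial share of TPM was 10.3% to 18.7% in normal cultures and 19.5% to 25.6% in oncospheres. ZC3H12A was at 30.7 and 34.9 TPM in A549 normal wild type and 16.9 and 19.9 in the libraries labelled knockout. In the other comparisons both libraries labelled knockout were above both wild-type ones: 60.2 and 55.6 against 48.5 and 49.2 in A549 oncospheres, 41.5 and 41.5 against 26.8 and 29.9 in H2023 normal culture, and 94.6 and 69.2 against 32.5 and 26.4 in H2023 oncospheres. Its mRNA was thus higher in the libraries labelled knockout in 3 of 4 comparisons. The level of the mRNA does not show whether the protein was lost. The edit itself was not examined, so libraries are called by their label throughout. All 6 epithelial markers searched (EPCAM, CDH1 and KRT7, KRT8, KRT18 and KRT19) were present, at a summed level of 2571 to 13032 TPM.

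The claudin present in the largest amount depended on the culture. In normal culture the 6 claudins summed to between 125 and 139 TPM in A549 wild type, where CLDN1 made up 54.1% and 46.3% of the sum and CLDN2 29.0% and 39.3%. In oncospheres of the same cells the sum was 448 to 544 TPM, and CLDN2 made up 82.3% and 83.5% of it. In A549 wild type CLDN1 thus led in normal culture and CLDN2 in oncospheres. In H2023 wild type CLDN1 also led in normal culture, at 34.9% and 56.5%, followed by CLDN12 at 29.1% and 22.1%, with CLDN2 at 25.4% and 8.62%. In H2023 wild-type oncospheres CLDN2 led, at 84.3% and 67.6%. CLDN2 also led in the oncosphere libraries labelled knockout, with 83.2% and 86.0% in A549 and 80.6% and 73.7% in H2023. The exception among normal cultures was A549 labelled knockout, where the sum was 40.7 to 41.6 TPM and CLDN12 was the largest, at 40.7% and 47.4%. CLDN12 there had 16.9 and 19.3 TPM, overlapping the wild type at 19.5 and 17.5, while CLDN1 and CLDN2 were below it.

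**Figure D1:**
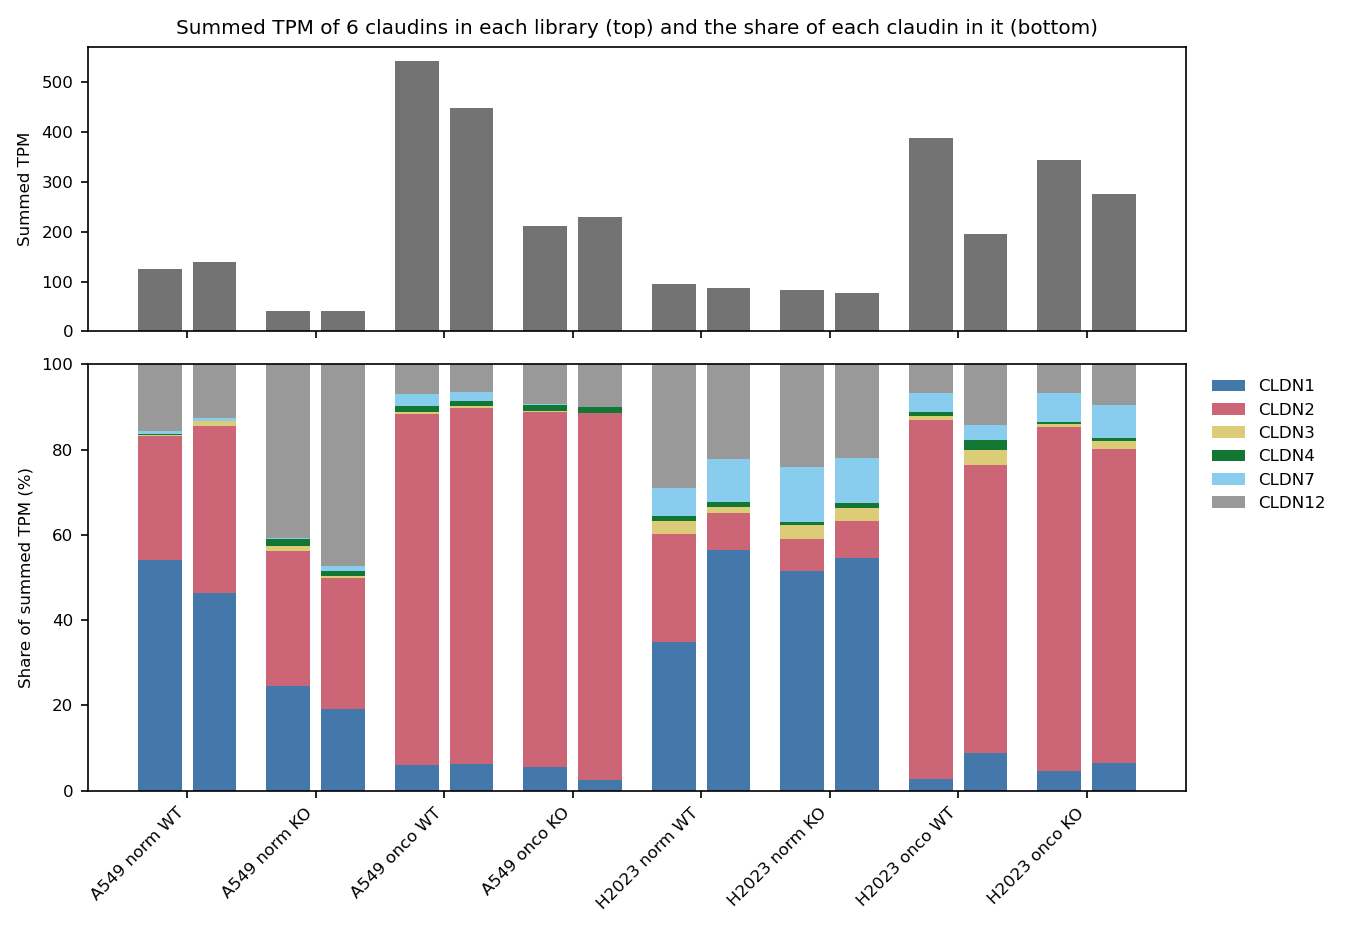
Summed TPM of the 6 claudins in each of the 16 libraries (top) and the percent of that sum held by each claudin (bottom); bars are single libraries, 2 per group, norm and onco being normal and oncosphere culture, WT wild type and KO labelled knockout. CLDN2 holds 67.6% or more in every oncosphere library and 39.3% or less in every normal-culture library.

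Over the 8 group means of log2(TPM + 1), CLDN2 had the widest span of the 9 genes, 5.79, followed by CLDN7 with 4.34 and TJP3 with 4.20. CLDN12 had the narrowest, 0.83, and TJP1 came next at 1.29. CLDN2 was highest in A549 wild-type oncospheres (411 ± 52.2 TPM, SD, n = 2) and lowest in H2023 normal culture labelled knockout (6.39 ± 0.25). Its oncosphere groups formed the upper end without overlapping the normal cultures, but H2023 wild-type oncospheres overlapped those of A549 and H2023 labelled knockout. CLDN7 was highest in H2023 oncospheres labelled knockout (22.4 ± 1.26 TPM), and its lowest levels were in A549 labelled knockout, at 0.28 ± 0.21 in normal culture and 0.15 ± 0.04 in oncospheres, which overlap. TJP1 was abundant in every group, from 26.1 ± 1.90 TPM in H2023 wild-type oncospheres to 65.5 ± 5.47 in H2023 normal culture labelled knockout. CLDN3 stayed low throughout, with group means from 0.28 to 5.19 TPM and replicates that overlapped at each step of the order.

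**Figure D2:**
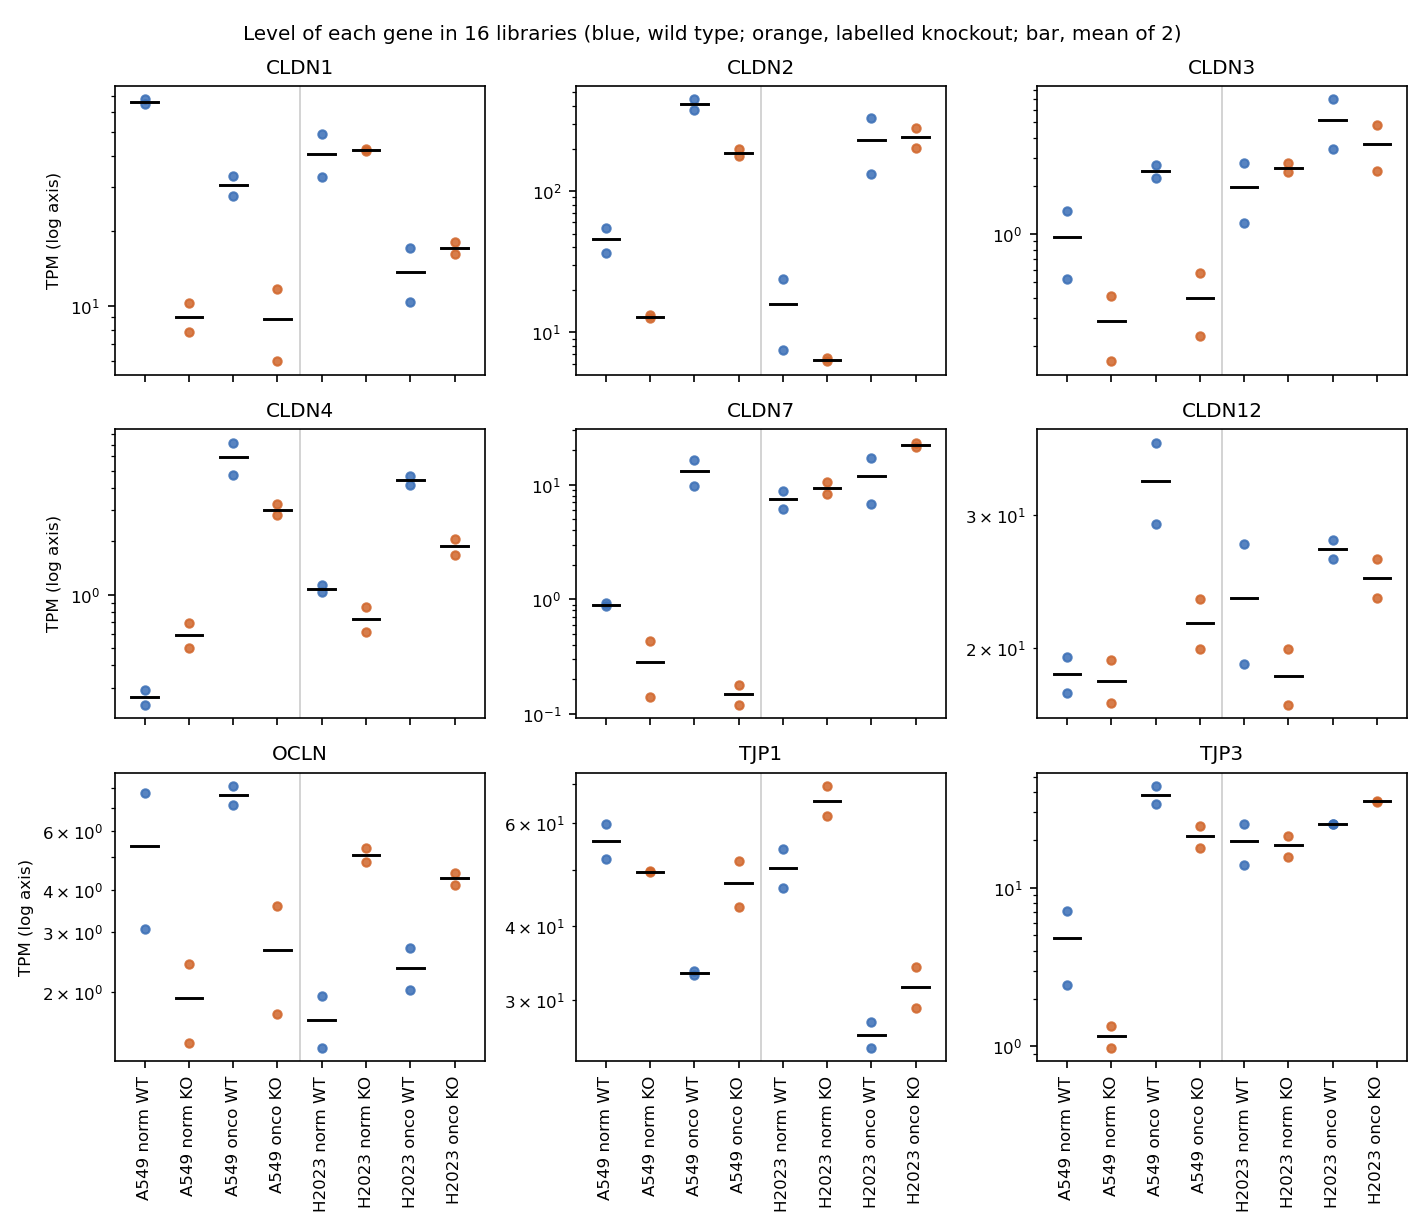
TPM of each of the 9 genes in all 16 libraries on log axes; points are libraries (blue, wild type; orange, labelled knockout), bars the mean of 2, and the line parts A549 (left) from H2023 (right). CLDN2 is at 132 TPM or more in all 8 oncosphere libraries and at 54.9 TPM or less in all 8 normal-culture libraries, and CLDN7 is at 0.43 TPM or less in all 4 A549 libraries labelled knockout.

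The first set of comparisons set oncosphere against normal culture within each line and genotype. CLDN2, the cation pore, was at 36.3 and 54.9 TPM in A549 wild type in normal culture and at 448 and 374 in oncospheres. In A549 labelled knockout it was at 13.2 and 12.5 and at 176 and 198. The H2023 libraries had 24.0 and 7.44 against 328 and 132 in wild type, and 6.21 and 6.57 against 278 and 203 in those labelled knockout. Every oncosphere library was above every normal-culture library, and the ratio of group means was 9.0, 14.6, 14.6 and 37.6 in A549 wild type, A549 labelled knockout, H2023 wild type and H2023 labelled knockout. CLDN2 rose in all 4 comparisons (limma with Benjamini-Hochberg adjustment over 18227 genes), by 3.17 ± 0.18 (SE), 3.76 ± 0.18, 3.85 ± 0.59 and 5.01 ± 0.59 on the log2(TPM + 1) scale, with adjusted p = 4.42e-05, 1.20e-04, 0.0083 and 0.0024. Fold changes on this scale understate the change of low genes. The lower H2023 wild-type library in each culture was replicate 2, and leaving out any 1 library kept the CLDN2 call in all 4 comparisons.

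The barrier claudin CLDN4 also rose in all 4 comparisons, from a lower level. It was at 0.29 and 0.24 TPM in A549 normal wild type and 7.18 and 4.74 in oncospheres, and in H2023 wild type at 1.13 and 1.03 against 4.17 and 4.65. The libraries labelled knockout had 0.69 and 0.50 against 3.23 and 2.80 in A549 and 0.62 and 0.85 against 1.68 and 2.07 in H2023. The groups did not overlap in either line. The log2 differences in the order used for CLDN2 were 2.44 ± 0.21, 1.33 ± 0.21, 1.38 ± 0.15 and 0.73 ± 0.15 (limma adjusted p = 1.24e-04, 0.0037, 0.0034 and 0.0152). The last of these missed the threshold without replicate 1 or 2 of H2023 normal culture labelled knockout (0.63, adjusted p = 0.0969, and 0.82, adjusted p = 0.0509) or without replicate 2 of its oncospheres (0.63, adjusted p = 0.0758).

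CLDN1, a barrier claudin, and TJP1, the main ZO scaffold, went the other way in 3 of the 4 comparisons. CLDN1 was at 67.7 and 64.6 TPM in A549 normal wild type and 33.3 and 27.6 in oncospheres. H2023 had 32.9 and 48.8 against 10.3 and 17.1 in wild type, and 42.6 and 42.0 against 16.1 and 18.1 labelled knockout. CLDN1 fell by 1.10 ± 0.26, 1.52 ± 0.26 and 1.26 ± 0.26 on the log2 scale in these 3 comparisons (limma adjusted p = 0.0118, 0.0116 and 0.0159). In A549 labelled knockout, where CLDN1 was already low, it was at 10.2 and 7.80 TPM in normal culture and 11.6 and 5.96 in oncospheres, which overlap (-0.09 ± 0.26, adjusted p = 0.864). The A549 wild-type call was lost without normal-culture replicate 1 (-1.07, adjusted p = 0.0651) or oncosphere replicate 2 (-0.97, adjusted p = 0.0672), and the H2023 wild-type call without normal-culture replicate 2 (-1.25, adjusted p = 0.0587). The H2023 call in libraries labelled knockout was lost without any 1 of its 4 libraries, with adjusted p up to 0.0855.

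TJP1 was at 59.8 and 52.1 TPM in A549 normal wild type and 33.6 and 33.0 in oncospheres. In H2023 it was at 54.3 and 46.5 against 24.8 and 27.5 in wild type and at 69.4 and 61.7 against 29.0 and 34.1 in libraries labelled knockout. TJP1 fell by 0.73 ± 0.12, 0.92 ± 0.13 and 1.03 ± 0.13 there (limma adjusted p = 0.0021, 0.0069 and 0.0030), and each call held under all 9 alternatives run for it. A549 labelled knockout had 49.7 and 49.5 TPM against 51.6 and 43.2, which overlap (-0.07 ± 0.12, adjusted p = 0.739).

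TJP3 rose with culture in both genotypes of A549, and CLDN12 and CLDN3 in A549 wild type. TJP3 (ZO-3), a scaffold found mainly in epithelia, was at 2.45 and 7.13 TPM in normal wild type and 43.8 and 33.6 in oncospheres, and at 0.97 and 1.34 against 17.8 and 24.5 in libraries labelled knockout. It rose by 2.89 ± 0.37 and 3.35 ± 0.37 on the log2 scale (limma adjusted p = 6.76e-04 and 9.29e-04). In H2023 TJP3 was at 25.3 and 13.9 against 25.3 and 25.2 in wild type and 21.3 and 15.7 against 35.4 and 34.7 in libraries labelled knockout, and neither difference passed (0.41, adjusted p = 0.332, and 0.90, adjusted p = 0.0527). CLDN12 rose in A549 wild type by 0.81 ± 0.16 (limma adjusted p = 0.0046), from 19.5 and 17.5 to 37.3 and 29.1 TPM. CLDN3 was called there too (0.86 ± 0.24, adjusted p = 0.0239), from 0.52 and 1.4 to 2.24 and 2.69 TPM. That call was lost at a pseudocount of 0.1, with all 16 libraries in the fit, and without normal-culture replicate 1 (0.53, adjusted p = 0.142) or oncosphere replicate 1 or 2 (0.95, adjusted p = 0.0564, and 0.76, adjusted p = 0.0996). OCLN passed in none of the 4 comparisons, with log2 differences of -0.19 to 0.53.

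Of the 9 genes, CLDN7 differed most between the genotypes of A549 in its response to culture. In A549 wild type it was at 0.87 and 0.93 TPM in normal culture and at 16.4 and 9.72 in oncospheres, a rise of 2.84 ± 0.25 on the log2 scale (limma adjusted p = 1.25e-04). In A549 labelled knockout it was at 0.14 and 0.43 TPM in normal culture and 0.18 and 0.12 in oncospheres, and these overlap (-0.15 ± 0.25, adjusted p = 0.719). H2023 had 6.17 and 8.79 against 17.1 and 6.83 TPM in wild type, which overlap, and 10.6 and 8.24 against 23.2 and 21.5 in libraries labelled knockout (0.51, adjusted p = 0.397, and 1.17, adjusted p = 0.0706).

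By count, 6 of the 9 genes rose and 2 fell in A549 wild type, where 19.0% of all genes rose and 21.6% fell. In A549 labelled knockout 3 rose and 0 fell, against 10.9% and 9.87% of all genes. In H2023 2 rose and 2 fell in either genotype, the same 4 genes (CLDN2, CLDN4, CLDN1 and TJP1), against 3.96% and 17.4% of all genes in wild type and 7.68% and 19.2% in libraries labelled knockout. Centring each library on its median moved the median gene of the H2023 comparisons by 0.25 and 0.15 on the log2 scale and the split of all calls from 721 higher and 3180 lower to 1455 and 1260 in wild type, and from 1400 and 3495 to 2145 and 2322 in libraries labelled knockout. The directions of the 4 genes held under that centring. In H2023 labelled knockout it also brought CLDN7 (1.33, adjusted p = 0.0333) and TJP3 (1.06, adjusted p = 0.0187) past the threshold, so 4 rose. CLDN7 and TJP3 passed there after the filter on low values as well (adjusted p = 0.0357 and 0.0272), and CLDN7 with all 16 libraries in the fit (0.0206). The share of mitochondrial TPM was higher in every oncosphere library than in every normal-culture library, and its part in these differences was not tested.

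**Figure D3:**
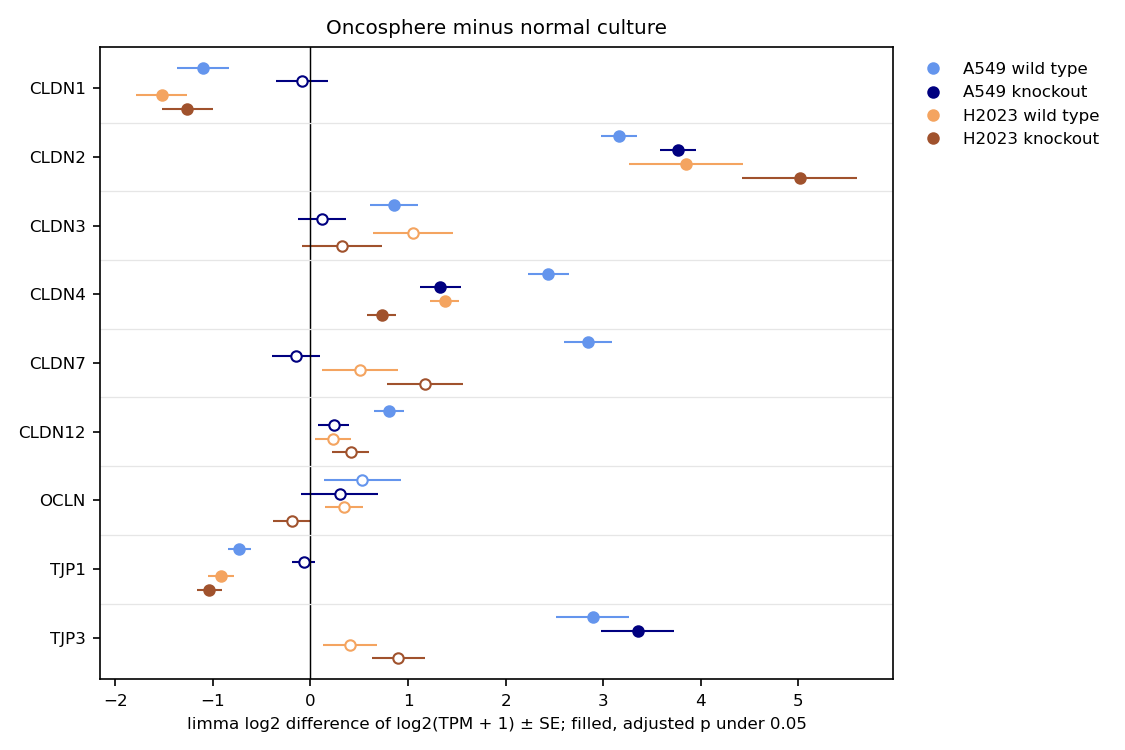
Difference of oncosphere minus normal culture for each of the 9 genes, as limma log2 of TPM + 1 with SE bars; colours are the 4 combinations of line and genotype (knockout as labelled), and filled points have an adjusted p under 0.05. CLDN2 lies between 3.17 and 5.01 in all 4, and TJP3 and CLDN7 lie at 2.89 and 2.84 in A549 wild type and at 0.41 and 0.51 in H2023 wild type, a difference between lines that was not tested.

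The second set of comparisons set libraries labelled knockout against wild type. In A549 normal culture CLDN1 fell furthest, from 67.7 and 64.6 TPM to 10.2 and 7.80, a mean level 7.33-fold lower. CLDN2 fell from 36.3 and 54.9 TPM to 13.2 and 12.5, 3.55-fold lower. Neither gene's groups overlapped, and the log2 differences were -2.75 ± 0.15 and -1.72 ± 0.21 (limma adjusted p = 0.0046 and 0.0148). These 2 of 9 were the genes called, all lower, against 6.28% of all genes called lower and 10.8% called in either direction. OCLN (7.76 and 3.07 against 2.42 and 1.41 TPM) and TJP3 (2.45 and 7.13 against 0.97 and 1.34 TPM) were lower without overlap but did not pass (-1.06 ± 0.42, adjusted p = 0.157, and -1.30 ± 0.43, adjusted p = 0.111), their wild-type replicates lying far apart. The authors' deposited table, which holds another test, called both lower along with CLDN1 and CLDN2. That is 4 of 9 lower and 0 higher, where it called 10.9% of genes lower and 11.2% higher. CLDN3, CLDN4 and CLDN7 were near or below 1 TPM, with the authors' mean normalized counts at 11.4, 17.0 and 8.16, and none of them passed. CLDN12 and TJP1 differed by -0.03 ± 0.14 and -0.17 ± 0.11 (adjusted p = 0.911 and 0.340). Without any 1 of the 4 libraries limma called none of the 9 genes, with adjusted p from 0.0922 to 0.133 for CLDN1 and from 0.132 to 0.159 for CLDN2; such a fit keeps 1 residual degree of freedom and called 0 of all genes.

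In A549 oncospheres more of the junction genes fell in the libraries labelled knockout, CLDN7 most of all. CLDN7 was at 16.4 and 9.72 TPM in wild type and 0.18 and 0.12 in the libraries labelled knockout, a log2 difference of -3.57 ± 0.28 (limma adjusted p = 0.0038) and of -5.76 ± 0.69 in the authors' deposited table. CLDN1 went from 33.3 and 27.6 TPM to 11.6 and 5.96 (-1.74 ± 0.30, adjusted p = 0.0239). CLDN2 went from 448 and 374 to 176 and 198 TPM (-1.12 ± 0.13, adjusted p = 0.0089). In each of these genes both libraries labelled knockout were below both wild-type libraries. CLDN3 (2.24 and 2.69 against 0.57 and 0.23 TPM) and OCLN (8.13 and 7.15 against 3.59 and 1.72 TPM) fell as well, by 1.32 ± 0.19 and 1.29 ± 0.30 (limma adjusted p = 0.0161 and 0.0490). That is 5 of 9 lower and 0 higher, against 7.2% of all genes lower, 6.04% higher and 13.2% in either direction.

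The other 4 genes missed the threshold of limma in A549 oncospheres. CLDN4 (7.18 and 4.74 against 3.23 and 2.80 TPM), CLDN12 (37.3 and 29.1 against 19.9 and 23.2) and TJP3 (43.8 and 33.6 against 17.8 and 24.5) were lower without overlap, with adjusted p = 0.101, 0.0779 and 0.0574. TJP1 alone of the 9 was higher, at 51.6 and 43.2 TPM against 33.6 and 33.0 (0.49 ± 0.13, adjusted p = 0.0659). The authors' deposited table called all 9, 8 lower and TJP1 higher, against 11.4% of genes lower and 9.29% higher. The limma call of CLDN2 was lost with all 16 libraries in the fit (adjusted p = 0.103) and that of OCLN at a pseudocount of 0.1 (adjusted p = 0.0574). The limma calls were lost on leaving out any 1 of the 4 libraries, a fit that keeps 1 residual degree of freedom. The log2 differences then ran from -3.92 to -3.22 for CLDN7, from -2.17 to -1.31 for CLDN1 and from -1.25 to -0.995 for CLDN2. They ran from -1.49 to -1.14 for CLDN3 and from -1.67 to -0.91 for OCLN. Groups that did not overlap were common: 8 of 9 genes were lower without overlap and 1 (TJP1) higher, against 27.8% and 32.7% of all genes. In normal culture 7 of 9 were lower without overlap and 1 (CLDN4) higher, against 34.6% and 27.2%. The median log2 difference of the 9 genes was -0.58 in normal culture and -1.12 in oncospheres, where that of all genes was -0.03 and 0.03. In bulk samples fewer cells with a transcript and less transcript per cell cannot be told apart.

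The knockout difference of CLDN7 was larger in A549 oncospheres than in A549 normal culture, by -2.996 ± 0.35 on the log2 scale (limma interaction, adjusted p = 0.0067). This call held under all 13 alternatives run for it, with adjusted p no higher than 0.0411, and 3.13% of all genes were called lower and 3.52% higher in this contrast. It was the 1 of the 9 genes called. CLDN4 (-1.11 ± 0.30, adjusted p = 0.0648) and TJP1 (0.66 ± 0.17, adjusted p = 0.0566) came closest among the others. CLDN4 passed without A549 wild-type oncosphere replicate 2 (-1.36, adjusted p = 0.0371).

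In H2023 none of the 9 genes passed limma between libraries labelled knockout and wild type, in either culture. CLDN1 was at 32.9 and 48.8 TPM in normal wild type and 42.6 and 42.0 in the libraries labelled knockout, and at 10.3 and 17.1 against 16.1 and 18.1 in oncospheres; both pairs overlap. CLDN7 was at 6.17 and 8.79 against 10.6 and 8.24 TPM in normal culture, overlapping, and at 17.1 and 6.83 against 23.2 and 21.5 in oncospheres, not overlapping. OCLN was higher without overlap in both cultures, at 1.94 and 1.36 against 5.33 and 4.84 TPM in normal culture and 2.70 and 2.02 against 4.51 and 4.15 in oncospheres. CLDN4 was lower without overlap in both, at 1.13 and 1.03 against 0.62 and 0.85 TPM and at 4.17 and 4.65 against 1.68 and 2.07. In all, 2 of 9 genes were higher and 2 lower without overlap in normal culture, against 26.1% and 24.5% of all genes. In oncospheres 4 of 9 were higher and 2 lower, against 28.6% and 18.9%.

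Over all genes limma called 0.0% in either H2023 comparison; at an unadjusted p under 0.05 it had 3314 genes (18.2%) in normal culture and 2828 (15.5%) in oncospheres. Of the 9 genes, 2 were higher (OCLN and TJP1) and 0 lower at that unadjusted level in normal culture, and 2 higher and 1 lower in oncospheres. The log2 difference of OCLN was 1.21 ± 0.19 in normal culture (limma adjusted p = 0.144) and 0.67 ± 0.19 in oncospheres (0.274), and that of CLDN4 in oncospheres was -0.91 ± 0.18 (0.231). The authors' deposited table called 1 of 9 in normal culture, OCLN higher (1.397 ± 0.28, adjusted p = 3.59e-05), against 3.84% of genes called higher and 6.97% lower. It called none of the 9 in oncospheres, where it called 2.22% of genes higher and 2.85% lower, CLDN4 being nearest (-1.01 ± 0.33, adjusted p = 0.0508). OCLN in normal culture also passed limma after a filter on low values (adjusted p = 0.0360) and after centring (0.0469), and CLDN4 in oncospheres with all 16 libraries in the fit (0.0154). CLDN2 was at 24.0 and 7.44 TPM against 6.21 and 6.57 in normal culture and 328 and 132 against 278 and 203 in oncospheres, where its wild-type replicates lie further apart than the group means. No gene of the 9 was called for a different knockout effect between the H2023 cultures (limma interaction, adjusted p from 0.650 to 0.937), a contrast with 0.0% of all genes called and 1294 (7.1%) at an unadjusted p under 0.05.

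**Figure D4:**
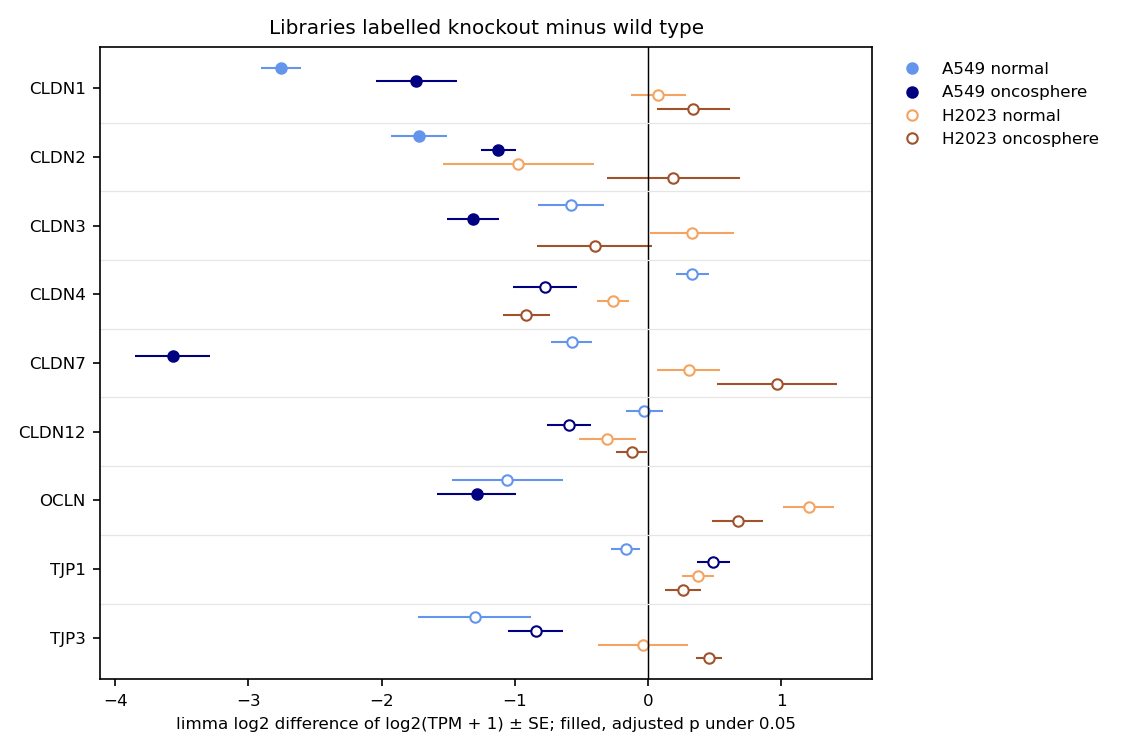
Difference of libraries labelled knockout minus wild type for each of the 9 genes, as limma log2 of TPM + 1 with SE bars, in the 4 combinations of line and culture; filled points have an adjusted p under 0.05. All filled points are in A549 and below 0, from -3.57 (CLDN7, oncospheres) to -1.12 (CLDN2, oncospheres), and OCLN lies below 0 in A549 and above 0 in H2023.

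Whether the knockout difference itself depended on the line was tested as an interaction in each culture. CLDN1 differed most in normal culture, H2023 being higher by 2.83 ± 0.27 on the log2 scale than A549 (limma adjusted p = 0.0019), and OCLN differed by 2.26 ± 0.51 (adjusted p = 0.0285). These 2 of 9 compare with 6.89% of all genes called higher, and 0 of 9 were called lower against 5.4%. In oncospheres CLDN7 (4.54 ± 0.56, adjusted p = 0.0048), CLDN1 (2.08 ± 0.45, adjusted p = 0.0305), OCLN (1.96 ± 0.38, adjusted p = 0.0222) and TJP3 (1.30 ± 0.26, adjusted p = 0.0229) were called, 4 of 9 higher against 5.83% of all genes and 0 lower against 4.02%. OCLN and CLDN1 were thus lower in libraries labelled knockout in A549 relative to H2023 in both cultures. CLDN4, CLDN12 and TJP1 were not called in either culture.

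The calls of CLDN1 in normal culture and CLDN7 in oncospheres held under all 13 alternatives, with adjusted p up to 0.0161 and 0.0282. The OCLN call in normal culture was lost without A549 wild-type replicate 1 (1.71, adjusted p = 0.0573) and without each of 5 other libraries, with adjusted p up to 0.10. In oncospheres the calls of OCLN, CLDN1 and TJP3 were each lost without any 1 of 6 of the 8 libraries, with adjusted p up to 0.0828, 0.111 and 0.0756, and TJP3 also with all 16 libraries in the fit (0.103). CLDN2 was not called in either culture (0.75, adjusted p = 0.468, and 1.31, adjusted p = 0.172). It passed without H2023 wild-type replicate 1, the higher of the pair, in normal culture (1.53, adjusted p = 0.0314) and in oncospheres (1.97, adjusted p = 0.0141).

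Wild-type cells of the 2 lines differed in their junction mRNAs. In normal culture H2023 had more CLDN7 (6.17 and 8.79 against 0.87 and 0.93 TPM in A549), more TJP3 (25.3 and 13.9 against 2.45 and 7.13) and more CLDN4 (1.13 and 1.03 against 0.29 and 0.24). These were higher by 2.14 ± 0.23, 1.90 ± 0.42 and 0.72 ± 0.13 on the log2 scale (limma adjusted p = 3.52e-04, 0.0086 and 0.0039). CLDN2, OCLN and CLDN1 were lower in H2023, by -1.65 ± 0.44, -1.18 ± 0.36 and -0.71 ± 0.19 (adjusted p = 0.0182, 0.0307 and 0.0189). So 3 of 9 were higher, against 27.0% of all genes, and 3 lower, against 15.4%. Centring moved the median gene of this comparison by -0.21 and the split of all calls from 4915 higher and 2808 lower to 3315 and 4499; the 6 genes kept their direction. CLDN1 was not called with all 16 libraries in the fit (adjusted p = 0.0626), nor without H2023 replicate 1 (-0.43, adjusted p = 0.0872), A549 replicate 1 (0.0935) or A549 replicate 2 (0.0718). Without H2023 replicate 1 TJP3 (1.49, adjusted p = 0.0545) was not called, without A549 replicate 2 CLDN2 (-1.36, adjusted p = 0.119) was not, and OCLN was not called without A549 replicate 1 (-0.63, adjusted p = 0.146) or either H2023 replicate.

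In oncospheres the wild-type lines were closer in CLDN7, at 16.4 and 9.72 TPM in A549 and 17.1 and 6.83 in H2023 (-0.20 ± 0.39, adjusted p = 0.720). CLDN1, OCLN and TJP3 were lower in H2023, by -1.13 ± 0.32, -1.37 ± 0.27 and -0.58 ± 0.18 (limma adjusted p = 0.0250, 0.0062 and 0.0352). That is 3 of 9 lower and 0 higher, against 22.1% and 20.4% of all genes. OCLN kept its call under all 9 alternatives run for it. CLDN1 was not called without A549 replicate 1 (-1.0, adjusted p = 0.126), A549 replicate 2 or H2023 replicate 1, nor TJP3 with all 16 libraries in the fit (adjusted p = 0.196), without A549 replicate 1 (-0.40, adjusted p = 0.187) or without either H2023 replicate.

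Of 52 other tight junction genes listed, 35 were in the tables; CLDN5, CLDN6 and CLDN18 were not analysed here. Of the other claudins 3 were measured, CLDN15 at 7.89 to 16.2 TPM and CLDN11 and CLDN16 below 1 TPM in every library, and limma called none of them in a knockout comparison. In A549 normal culture 6 of the 35 fell and 1 rose in the libraries labelled knockout, and in A549 oncospheres 9 fell and 2 rose. Of all genes 6.28% and 7.2% fell and 4.54% and 6.04% rose. LSR (angulin-1), the receptor that marks corners where 3 cells meet, fell in both, from 22.5 and 22.3 to 5.62 and 3.73 TPM (-2.07 ± 0.21, adjusted p = 0.0111) and from 64.7 and 52.1 to 7.63 and 8.60 (-2.70 ± 0.16, adjusted p = 0.0025). CGN (cingulin), a plaque protein that binds ZO-1, fell from 4.21 and 5.06 to 1.56 and 1.76 TPM and from 17.2 and 8.09 to 1.51 and 1.27 (-1.08 and -2.43, adjusted p = 0.0334 and 0.0157). MARVELD2 and MARVELD3, relatives of occludin, fell in oncospheres, by -1.23 and -1.41 (adjusted p = 0.0221 and 0.0077). CXADR, an immunoglobulin-like adhesion protein of the junction, fell furthest in normal culture, from 10.0 and 14.4 to 2.28 and 1.91 TPM (-2.08, adjusted p = 0.0133). CRB3, a Crumbs polarity protein, fell in oncospheres, from 15.2 and 14.7 to 4.04 and 3.63 TPM (-1.72, adjusted p = 0.0057). PARD3, a polarity scaffold, fell in both cultures by -0.87 and -0.99 (adjusted p = 0.0198 and 0.0203). AMOTL1 and AFDN (afadin) fell in normal culture by -1.51 and -0.51 (adjusted p = 0.0229 and 0.0496), and ARHGEF2 fell in oncospheres by -1.01 (adjusted p = 0.0408). In oncospheres limma also called AFDN and CGNL1 lower and CDK4 higher. JAM3, a junctional adhesion molecule, rose in both, from 3.39 and 4.03 to 13.3 and 17.7 TPM and from 0.96 and 1.79 to 6.18 and 6.02 (1.80 and 1.60, adjusted p = 0.0134 and 0.0162).

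In H2023 limma called 0 of the 35 in either culture, with 2 lower and 4 higher at an unadjusted p under 0.05 in normal culture and 1 lower and 6 higher in oncospheres, where 18.2% and 15.5% of all genes reached that level in either direction. LSR was higher in the libraries labelled knockout there, at 55.6 and 46.4 against 113 and 74.4 TPM in normal culture and 47.0 and 54.8 against 90.1 and 103 in oncospheres, and the authors' deposited table called it in both (adjusted p = 7.96e-06 and 0.0037). CGNL1 (paracingulin) was higher in both as well, at 0.34 and 0.18 against 1.99 and 2.06 TPM and at 1.53 and 1.31 against 5.67 and 7.01 (adjusted p = 1.11e-12 and 4.02e-13 in the authors' deposited table). CGN, its paralog, was lower in oncospheres, at 5.5 and 4.5 against 1.61 and 1.87 TPM (adjusted p = 3.89e-05 there). F11R (JAM-A) was called lower in normal culture by the authors' deposited table (adjusted p = 7.83e-05), at 47.1 and 64.2 against 43.9 and 24.9 TPM. The knockout difference of LSR and CGNL1 was higher in H2023 than in A549 by limma interaction in both cultures, among 6 of 35 called higher in normal culture and 9 of 35 in oncospheres, against 6.89% and 5.83% of all genes.

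**Figure D5:**
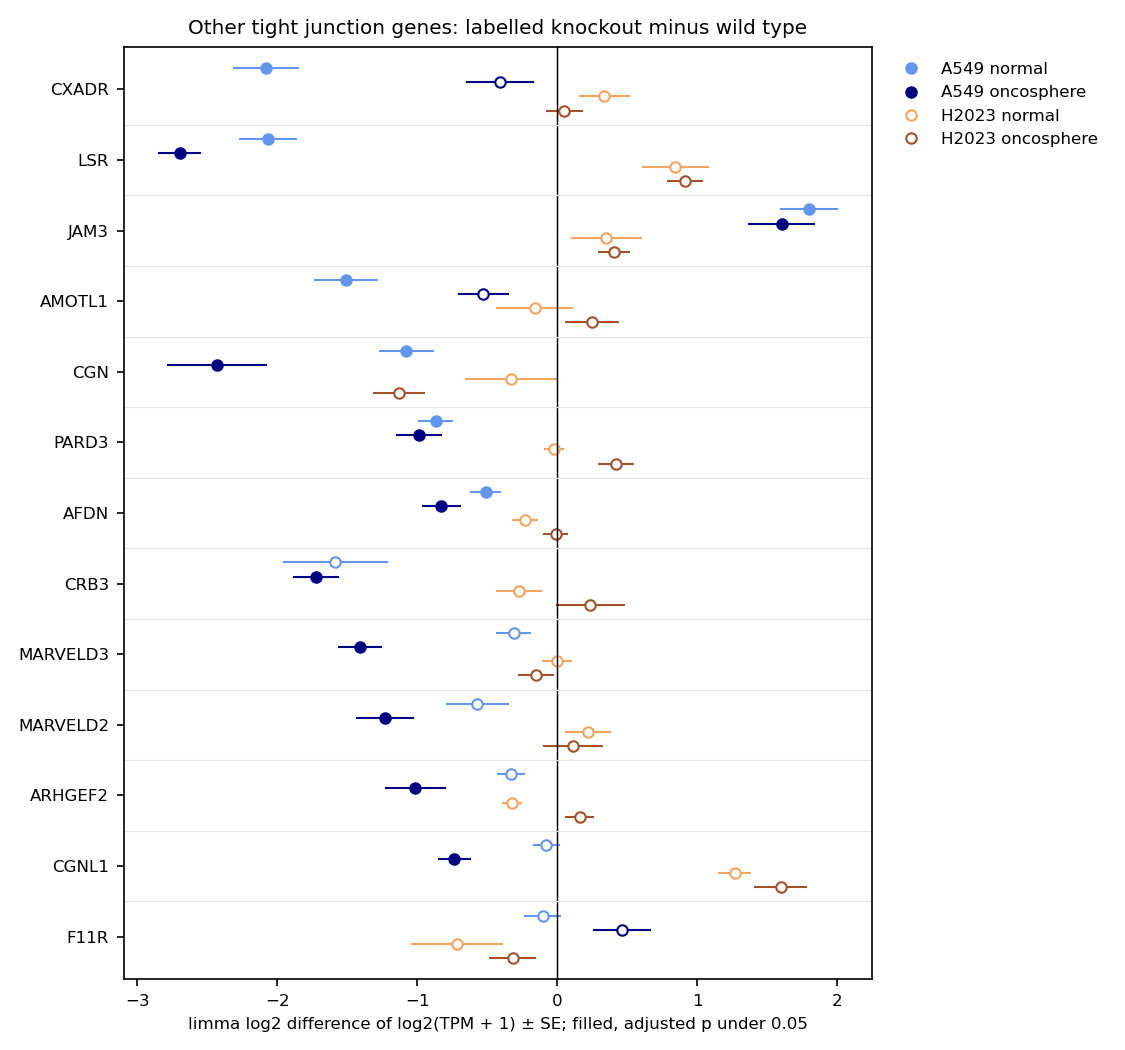
Difference of libraries labelled knockout minus wild type for 13 other tight junction genes, as limma log2 of TPM + 1 with SE bars, in the 4 combinations of line and culture; filled points have an adjusted p under 0.05. LSR lies at -2.07 and -2.70 in A549 and at 0.84 and 0.91 in H2023.

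Regulators of epithelial genes moved beside these in A549; 16 of 21 listed were measured. SNAI2, a repressor that binds CACCTG, rose in the libraries labelled knockout from 0.52 and 0.53 to 8.54 and 14.1 TPM in normal culture and from 0.17 and 0.16 to 2.59 and 1.74 in oncospheres (2.98 ± 0.27 and 1.43 ± 0.19, adjusted p = 0.0095 and 0.0114). HNF4A, an activator of epithelial genes, fell from 9.99 and 15.5 to 0.39 and 2.05 TPM and from 22.7 and 28.1 to 1.25 and 1.47 (-2.71 and -3.48, adjusted p = 0.0252 and 0.0025). ELF3, an epithelial ETS factor, fell from 117 and 193 to 24.6 and 23.8 TPM and from 312 and 263 to 102 and 90.7 (-2.58 and -1.57, adjusted p = 0.0095 and 0.0040). SNAI1, a repressor related to SNAI2, rose in normal culture from 2.12 and 2.18 to 8.0 and 16.1 TPM (1.98, adjusted p = 0.0288), and KLF4 fell in oncospheres from 10.2 and 6.18 to 2.14 and 2.59 TPM (-1.42, adjusted p = 0.0309). In all, 4 of 16 rose and 4 fell in A549 normal culture, against 4.54% and 6.28% of all genes, and 3 rose and 6 fell in oncospheres, against 6.04% and 7.2%. In H2023 limma called 0 in either culture. The authors' deposited table called 1 higher (KLF4) and 4 lower in H2023 normal culture, CDX2, FOXA1 and KLF5 among these, where it called 3.84% of genes higher and 6.97% lower, and none in oncospheres. Between the wild-type lines in normal culture limma called 6 regulators higher in H2023 (KLF4, KLF5, CDX2, SNAI1, SNAI2 and ZEB1). The 2 lower were HNF4A and the repressor ZEB2. Of all genes 27.0% were higher and 15.4% lower. CLDN7, TJP3 and CLDN4 were higher in H2023 there, and CLDN1, CLDN2 and OCLN lower. In wild-type oncospheres 4 regulators were higher in H2023 (CDX2, CEBPA, SNAI1 and SNAI2), against 20.4% of all genes. The 4 lower were GRHL3, ELF3, HNF4A and ZEB2, against 22.1%. Of the 4 claudins and occludin that fell in A549 oncospheres, the windows of CLDN1 and CLDN2 hold no CACCTG. Those of CLDN3 and OCLN do, and so does 1 of 2 of CLDN7. No window of the 9 genes holds CAAAGTCCA, the HNF4A element searched, which only 0.384% of all windows hold. The part of these regulators in the claudin differences was not tested.

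Genes with the pattern most like that of the 3 widest-ranging members were found by the root mean square difference of the 8 centred group means, over 16398 genes. Nearest to CLDN7 was GDA (guanine deaminase), at 0.23 on the log2 scale, then MMP28 (0.42) and BATF2 (0.43). Mean GDA levels in A549 wild type and labelled knockout were 1.36 and 0.06 TPM in normal culture and 12.3 and 0.38 in oncospheres, and in H2023 they were 6.02 and 7.23 and then 12.3 and 24.3. GDA shared with CLDN7 the rise in A549 wild-type oncospheres and the low level in A549 labelled knockout. It was picked for likeness over these same group means, so this sharing follows from the choice. Nearest to CLDN2 were CFB (0.66), PDK4 (0.67) and CEACAM1 (0.74), all highest in A549 wild-type oncospheres. Nearest to TJP3 were PCSK6 (0.43), MANSC1 (0.45) and HLA-DMA (0.47).

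Markers of other cell types were checked in all libraries. The 4 of 7 fibroblast markers measured summed to 1.60 to 10.3 TPM, and the 1 of 5 endothelial markers (PECAM1) to at most 2.76 TPM. Of 5 leukocyte markers 3 were measured, summing to 31.4 to 245 TPM, with the highest values in A549 wild-type oncospheres (151 and 245); PTPRC and CD3E were not analysed here. CD68 and LYZ fell in A549 oncospheres labelled knockout, where the leukocyte sum was 58.6 and 79.1 TPM, and the part of this in the claudin differences was not tested. The epithelial markers summed to 9175 and 9346 TPM in A549 normal wild type and 2571 and 5009 in the libraries labelled knockout, where KRT8, KRT18, KRT19 and CDH1 fell with CLDN1 and CLDN2. In A549 oncospheres CDH1, the adherens junction cadherin, was higher without overlap in the libraries labelled knockout, at 84.5 and 79.0 against 73.1 and 62.4 TPM. So were 32.7% of all genes, and neither limma nor the authors' deposited table called CDH1. EPCAM and KRT19 fell there. KRT7 was lower without overlap, as were 27.8% of all genes, and was called lower by the authors' deposited table but not by limma. The epithelial sum in H2023 was higher in the libraries labelled knockout. It was 12326 to 13032 TPM against 8749 to 9397 in wild type in normal culture, and 7766 to 8273 against 4327 to 4565 in oncospheres. The single markers were mixed in H2023 normal culture. There KRT8 and KRT18 were higher without overlap and EPCAM and KRT19 lower, where 26.1% and 24.5% of all genes were so. In H2023 oncospheres KRT7, KRT8, KRT18 and KRT19 were higher without overlap and none was lower, against 28.6% and 18.9%.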

How the data were processed

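RNA was sequenced from stranded TruSeq mRNA libraries, per the labels' protocols. The submitters' processing notes name HISAT2, StringTie and GRCh38, with no version or role, and whether counting used strand is not given in the sources used here. The authors deposited 4 tables, 1 per line and culture, with TPM for each library. They also deposited a mean normalized count (a signal over the 4 libraries), a log2 fold change with its SE, a test statistic (a score), a p-value and an adjusted p-value, in columns that the authors named as DESeq2 does. In 100% of rows that statistic is opposite in sign to the deposited fold change, which gives the directions here. 119 identifiers fill several rows; the first was kept, leaving 18227 genes.

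Raw counts were not used here, so two-sided tests with limma 3.58.1 in R 4.3.3, using its trend option, were run on log2(TPM + 1), with Benjamini-Hochberg adjustment over all genes and a threshold of 0.05. Knockout comparisons used 4 libraries. Culture comparisons and their interaction used the 8 of a line, and line comparisons and their interaction the 8 of a culture; TPM is scaled within each library, not across tables. TPM keeps no depth, so the 2 libraries per group set the precision.

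All 9 genes were tested in each comparison, and genes not called there are not always named. Other tight junction genes and regulators are given with values where their mean reached 1 TPM in a group and the adjusted p passed. These were up to 8 and 4 per knockout comparison by size of change (in H2023 by the authors' deposited table). Some others that were called are named without values. Some listed genes are not reported here. The genes, lists and tests were chosen with earlier results of these data known. Alternatives were a pseudocount of 0.1, a minimum mean of 1 TPM in a group, all 16 libraries in 1 fit, centring on the library median, a replicate block, leaving out each library, and the authors' deposited table.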

Additional observations from a re-analysis of the deposited data

Results flagged for a closer look

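In 7 results the difference between libraries labelled knockout and wild type was itself different between cultures or lines, by a direct test of that difference (limma interaction on log2(TPM + 1), adjusted over 18227 genes). Between the cultures of A549, CLDN7 was lower in oncospheres by a further -2.996 ± 0.35 (SE, adjusted p = 0.0067). Between the lines in normal culture, with H2023 above A549, the values were 2.83 ± 0.27 for CLDN1 (adjusted p = 0.0019) and 2.26 ± 0.51 for OCLN (adjusted p = 0.0285). Between the lines in oncospheres they were 4.54 ± 0.56 for CLDN7 (adjusted p = 0.0048), 2.08 ± 0.45 for CLDN1 (adjusted p = 0.0305), 1.96 ± 0.38 for OCLN (adjusted p = 0.0222) and 1.30 ± 0.26 for TJP3 (adjusted p = 0.0229). For CLDN7 and OCLN in oncospheres, both libraries labelled knockout were below both wild-type libraries in A549 and above both in H2023, where neither gene passed limma. These contrasts share libraries with each other and with the knockout comparisons.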

How the results depend on the processing

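In the knockout comparisons the number of the 9 genes called differed between settings. In A549 normal culture it was 2, and 4 with all 16 libraries in the fit and 4 in the authors' deposited table. In A549 oncospheres it was 5, 4 at a pseudocount of 0.1, 6 after the filter on low values or centring (TJP3 added), 7 with all 16 libraries (CLDN4, CLDN12 and TJP1 added, CLDN2 lost) and 9 in the authors' deposited table. In H2023 normal culture it was 0, and 1 (OCLN) after the filter on low values, after centring and in the authors' deposited table; in H2023 oncospheres it was 0, and 1 (CLDN4) with all 16 libraries. The interaction of genotype and culture in A549 called 1 gene, and 3 with all 16 libraries. Calls over all genes moved too. With all 16 libraries they went from 1971 to 3233 of 18227 in A549 normal culture and from 2413 to 3780 in A549 oncospheres. They went from 0 to 1014 in H2023 oncospheres and from 1212 to 1770 in the A549 interaction. In A549 oncospheres they were 2391 at a pseudocount of 0.1, 2716 of 15128 after the filter and 2586 after centring. In H2023 normal culture they were 453 of 14831 after the filter and 322 after centring, against 0. The cause of these changes was not tested. Leaving out 1 library gave 0 in all 4 knockout comparisons, with 1 residual degree of freedom. The ranges were 6 to 8 and 3 to 3 for culture in A549 wild type and labelled knockout, 3 to 4 and 2 to 3 in H2023, 3 to 7 and 1 to 3 for the lines in normal and oncosphere culture, 1 to 2 for the A549 culture interaction, and 1 to 3 for the line interaction in either culture. Where a lone library was left in a group, it was assumed to vary like the others.

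No called value reversed. Of 1311 recomputed values, 35 changed sign with neither value past the threshold, 32 of them on leaving out a library.

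The replicate block, tried because wild-type and knockout libraries share the numbers 1 and 2, called 2 genes in the A549 culture interaction (CLDN7 and TJP1), against 1 without it. It also brought TJP3 past the threshold for culture in H2023 labelled knockout (adjusted p = 0.0322) and CLDN2 for the lines in wild-type oncospheres (0.0461). Deviations of same-numbered libraries correlated at 0.0708, 0.115, 0.0290 and 0.442 over the 4 pairs of groups, and the labels do not say what a number shares, so the numbers were not taken as pairing.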
